A study of Xenopus laevis with 13 samples.

Results

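The transcription factors that direct endoderm formation in *Xenopus laevis* were followed from the fertilized egg to the gastrula. The genes were *sox17a*, *sox17b*, *sox7*, *mix1*, *mixer*, *gata4*, *gata5* and *gata6*. A gene model was taken when one of these names, alone or followed by a point and digits, stood in its name in the table of single libraries. This gave 15 gene models of 54110, at 12 loci. RNA was sequenced from 5 single embryos at the gastrula stage 10.5 of Nieuwkoop and Faber, from 3 technical libraries of stage 10.5, and from 5 single eggs at stage 1, collected 60 min after fertilization. The eggs of 1 female, which had been injected with human choriogonadotropin, were fertilized *in vitro*, and the labels name no other treatment or genotype. The spread between libraries therefore does not cover variation between mothers. The labels name the Kapa Hyper Prep Kit for the embryo libraries and only standard Illumina protocols for the egg libraries, so the effects of stage and of library preparation cannot be told apart. What the technical libraries are repeats of is not stated in the sources used here.

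In the blastula of *Xenopus*, the maternal T-box factor VegT and Nodal signals act on the vegetal cells and switch on the endodermal genes. *mix1* and *mixer* encode paired-type homeodomain proteins of the Mix family that respond early to these signals, and Mixer can activate *sox17* genes. *sox17a* and *sox17b* encode HMG-box factors of the SoxF family that are markers of definitive endoderm, and *sox7* is their relative. Gata4, Gata5 and Gata6 are zinc finger factors that act in endoderm and heart. *X. laevis* is allotetraploid, so most of these genes exist as homeologous copies.

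The gene models of *sox17* lie in pairs. On scaffold 000230826 of the JGI 7.1 assembly, *sox17a* spans 000230826:2741152-2743268 and *sox17b.1* spans 000230826:2756119-2758579, both with 2 exons on the plus strand, and 12.8 kb separates them. On scaffold 000058038, a short model of 344 bases that the table names *sox17a:sox17b.2:loc100049782* (000058038:4742944-4743960, minus strand) lies 10.8 kb from a model without a name in the table (000058038:4754730-4756806, minus strand). The deposited gene model file calls this unnamed model *sox17a*. The RefSeq gene behind the number in the first name is *sox17b.1.L*, so that model is called *sox17b.2* here for its table name only. The gene model file names 2 more models after members, a *mixer* on scaffold 000027161 (000027161:6858929-6862831; RefSeq *mixer.S*) and a *sox7* on scaffold 000102262 (000102262:3079468-3083999). These 3 models stand outside the 15 and were added after the values were seen.

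*mixer* (000102974:4922753-4925784) and *mix1* (000102974:4939118-4941672) are neighbours on the plus strand, 13.3 kb apart, and the second *mix1* (000027161:6844287-6846697, minus strand) lies 12.2 kb from the second *mixer*. *gata4* has a model on 000007103:2059612-2093097 and a pair of overlapping models on scaffold 000000678. The longer of these runs over 000000678:201148-238571 on the plus strand, with 7 exons, and the shorter over 000000678:201166-201835 on the minus strand. *gata5* lies at 000013471:2969653-3001925 and at 000014557:1087064-1121562, and *gata6* at 000085591:812897-839608 and at 000029621:3100292-3125239. A pair of overlapping *sox7* models on opposite strands lies at 000007103:1539765-1544575 and 000007103:1539738-1544564, 515 kb from *gata4*. The paper describes strand-specific library preparation for eggs and embryos. Whether the counting used the strand is not given in the sources used here, so reads of overlapping models cannot be told apart. Reads of 42 bases may also be shared between homeologous copies.

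Levels are given as deposited, in FPKM, a unit that corrects for sequencing depth and for transcript length and so allows levels of different genes to be set side by side. Reads recovered from the steps of low values numbered 1366787 to 3817836 in single embryos, 725918 to 1175465 in technical libraries and 1505767 to 2922679 in eggs. In egg 5, 5 gene models held 34.8% of the reads, against 1.51% to 2.81% in the other eggs. The mean correlation of a library with the others of its group was 0.931 to 0.959 in embryos and 0.884 to 0.925 in eggs, with egg 3 the lowest. Each of the 6 housekeeping names had at least 2 gene models above 0 in all 13 libraries, although other models of 5 of these names were listed at 0 in every library. A value of 0 is therefore called listed at 0. For each member model listed at 0 in all 5 eggs, the level that 3 reads over these eggs would give is stated as its limit. These limits cover counting error only. Whole embryos were sequenced, so a low level may come from few cells or from little RNA per cell, which cannot be told apart.

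The embryos differed from the eggs in nearly every model of these genes. Of the 15 gene models, 14 passed the filter on low values, which asked for 1 FPKM or more as the average of the 10 single libraries. In limma, 13 of the 14 were higher in embryos than in eggs at an adjusted p under 0.05, none was lower at an adjusted or unadjusted p under 0.05, and the *sox7* model on scaffold 000007103 did not pass the test. Over all 19373 gene models tested, 31.6% were called higher and 25.2% lower in embryos, 56.8% in all. The members' log2 changes had a median of 4.89, and those of all gene models tested 0.12. Of the 14 models, 12 had a mean under 1 FPKM in eggs and entered the test only through their level in embryos, so their count describes them and supports nothing further. Every embryo was above every egg in 13 of the 14 models, against 23.5% of all gene models tested. Of the 13 member models that averaged 2 FPKM or more in embryos, 8 were listed at 0 in all 5 eggs, and over all gene models of that level this share was 4.85%.

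**Figure D1:**
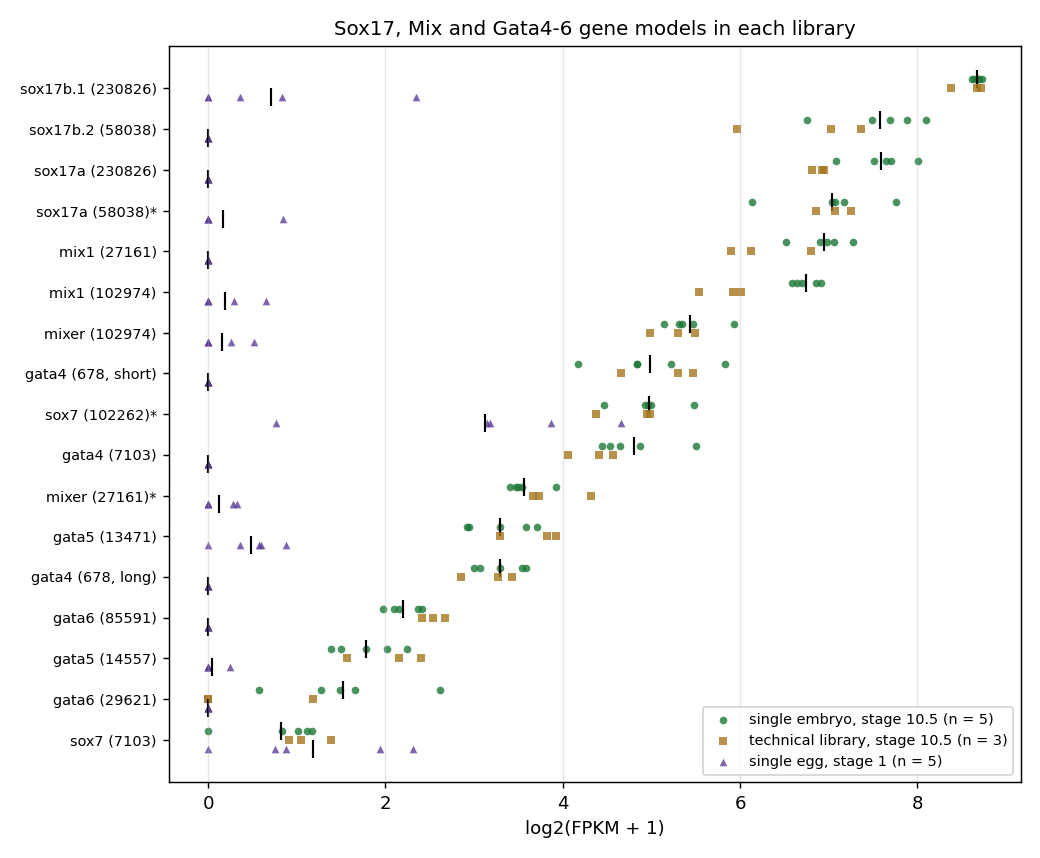
Level of each gene model on the log2(FPKM + 1) axis in 5 single embryos (circles), 3 technical libraries (squares) and 5 single eggs (triangles), with vertical bars at the means of embryos and of eggs. Numbers in brackets are scaffolds, an asterisk marks the 3 models named only in the gene model file, and the *sox7* model near 0 in every library is left out. Embryos and eggs are apart in every model except those of *sox7*, and the *sox17* and *mix1* models stand highest.

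**Figure D2:**
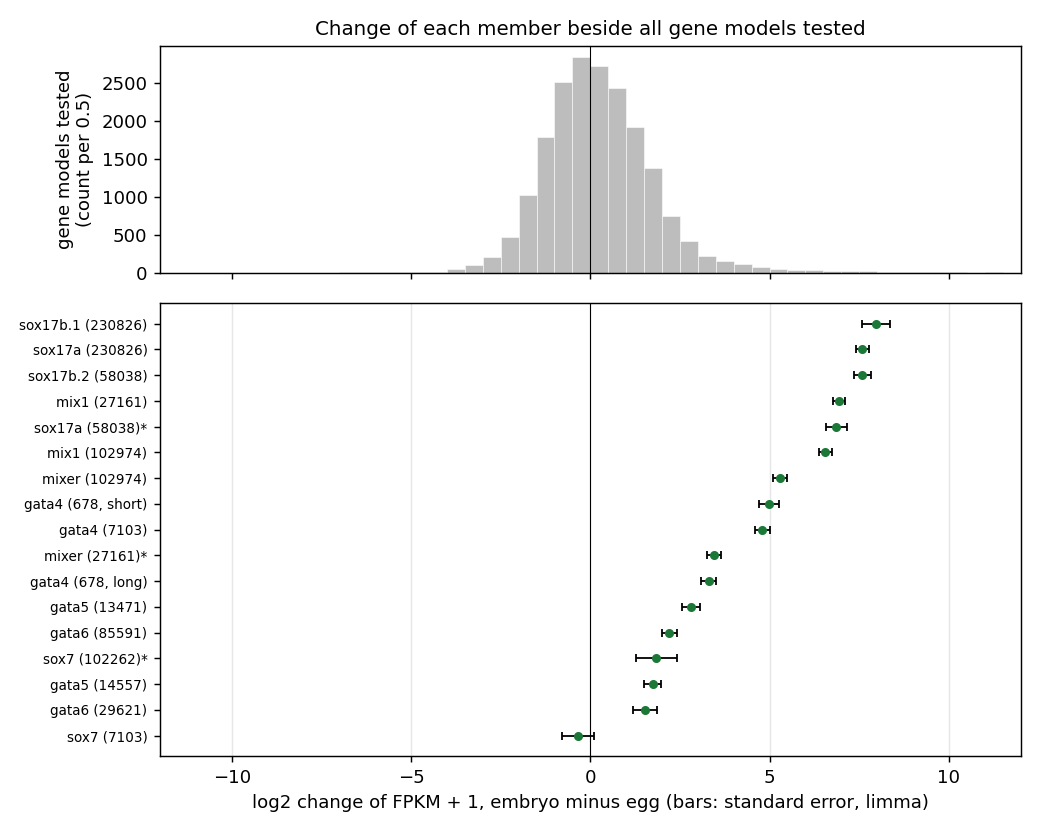
Upper panel, number of the 19373 gene models tested per 0.5 of log2 change of FPKM + 1, embryo minus egg; lower panel, the change of each model of the endoderm genes with its standard error from limma. The change is between 1.52 and 7.96 for the 13 member models called higher and -0.35 for the *sox7* model on scaffold 7103.

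*sox17b.1* was the most abundant of these mRNAs in the gastrula. It had 423, 410, 391, 399 and 413 FPKM in embryos 1 to 5, against 4.07, 0.287 and 0.785 FPKM in eggs 2, 4 and 5 and 0 in eggs 1 and 3. The embryos lay close together and far above every egg. On the log2(FPKM + 1) scale the change was 7.96 ± 0.38 (standard error, n = 5 each; limma, adjusted p = 2.16e-08). Pooled over libraries, 6048 reads in embryos stood against 18 reads in eggs, a ratio of 375 on the FPKM scale. Of the egg reads, 14 came from egg 2. In the order of mean levels in embryos, *sox17b.1* ranked 171 of all 54110 gene models.

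*sox17a* on scaffold 000230826 had 207, 200, 257, 182 and 134 FPKM in embryos 1 to 5 and was listed at 0 in all 5 eggs, where 3 reads would give 0.158 FPKM. Its log2 change was 7.59 ± 0.18 (limma, adjusted p = 7.68e-11). The short *sox17b.2* model had 206, 179, 273, 234 and 107 FPKM in embryos 1 to 5 and was also listed at 0 in every egg. Because it is only 344 bases long, its limit in eggs is higher, at 1.45 FPKM, and its level depends more on the assumed fragment length. Its log2 change was 7.58 ± 0.23 (adjusted p = 4.25e-10). The *sox17a* model on scaffold 000058038 had 143, 130, 216, 133 and 69.3 FPKM in embryos 1 to 5. It was at 0.802 FPKM in egg 4, from 2 reads, and at 0 in the other eggs, and its log2 change was 6.86 ± 0.29 (adjusted p = 7.04e-09). Summed over the 4 *sox17* models, embryos had 941 ± 148 FPKM (SD, n = 5) and eggs had between 0 and 4.07 FPKM.

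The Mix genes followed at lower levels. *mix1* on scaffold 000027161 had 132, 125, 154, 119 and 90.8 FPKM in embryos 1 to 5 and was listed at 0 in all eggs, with a limit of 0.234 FPKM. *mix1* on scaffold 000102974 had 120, 103, 114, 94.9 and 99.2 FPKM in embryos 1 to 5, against 0.574 and 0.225 FPKM in eggs 1 and 5 and 0 in the other eggs. The log2 changes were 6.95 ± 0.17 (limma, adjusted p = 7.68e-11) and 6.55 ± 0.18 (adjusted p = 1.82e-10). With 3 reads in eggs, the ratio of the second model was 686, with a 95% counting interval of 234 to 3329. *mixer* on scaffold 000102974 had 39.7, 43.1, 60.0, 38.8 and 34.2 FPKM in embryos 1 to 5, against 0.428 and 0.192 FPKM in eggs 2 and 5 and 0 in the others. Its log2 change was 5.29 ± 0.20 (adjusted p = 2.68e-09), and its ratio of 304 had a counting interval of 104 to 1476. The *mixer* model on scaffold 000027161 had 10.7, 10.3, 14.2, 10.1 and 9.59 FPKM in embryos 1 to 5 and 0.252 and 0.216 FPKM in eggs 1 and 4, and 0 in the others. Its change was 3.45 ± 0.19 (adjusted p = 7.82e-08).

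The *mix1* and *mixer* models sit in clusters with Bix genes, further homeobox genes of the same family, several of which are known targets of VegT or Brachyury. On scaffold 000102974, the models *bix3*, a second model that only the gene model file calls *bix3*, and *bix3:bix1:bix1.1* start 7.94, 16.4 and 23.3 kb downstream of the *mix1* start. Their embryo means were 133, 168 and 184 FPKM, and each was listed at 0 in every egg. On scaffold 000027161, *bix2*, *bix2:bix4* and *bix4* start 7.0, 16.7 and 28.3 kb downstream, with embryo means of 54.0, 216 and 193 FPKM and no egg above 0. Genes of other families at the edges were present in both stages. *lin9* had 27.2 FPKM in embryos and 9.35 FPKM in eggs on scaffold 000102974, and 15.03 FPKM in embryos and 5.57 FPKM in eggs on scaffold 000027161. *acbd3* on scaffold 000027161 had 4.07 FPKM in embryos and 2.45 FPKM in eggs. Of the *acbd3* models on scaffold 000102974, the nearer to *mix1* had 5.73 FPKM in embryos and 5.51 FPKM in eggs, and the farther had 2.71 FPKM in embryos and 9.06 FPKM in eggs. The homeobox models between these edges had egg means of at most 0.160 FPKM, whichever strand they were on. These neighbours were chosen by position. The list of other Mix and Bix genes holds 5 models, which are the Bix models above that the table names, so it is not a separate set. All 5 were tested and called higher in embryos, with a median log2 change of 7.52. Of all gene models tested, 31.6% were called higher. The models of this list summed to 0 FPKM in every egg. They entered the test only through their level in embryos, so this count supports nothing further.

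**Figure D3:**
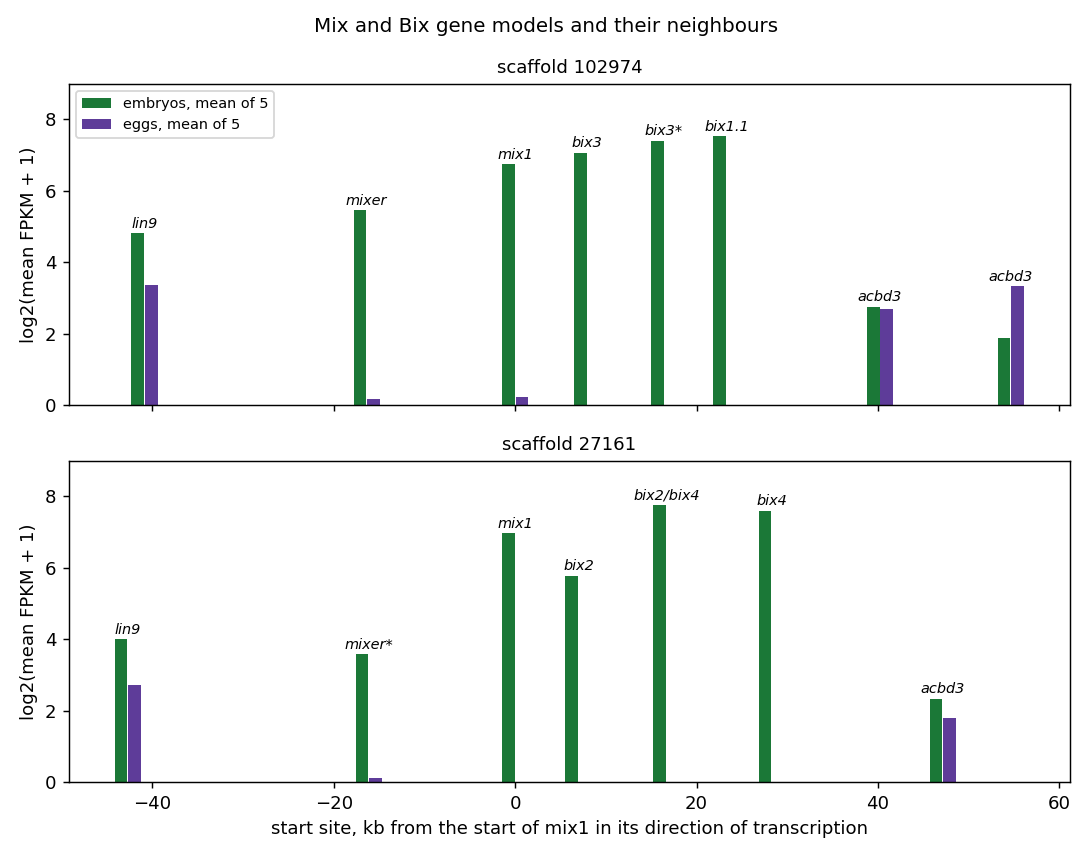
Mean level of the gene models within 60 kb of each *mix1* start with an embryo mean of at least 1 FPKM, on the log2(mean FPKM + 1) axis, in embryos (green, left bar) and eggs (purple, right bar), at the distance of their start from that of *mix1* along its direction of transcription. An asterisk marks models named only in the gene model file. The Mix and Bix models are high in embryos and near 0 in eggs, while *lin9* and *acbd3* at the edges are present in both.

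The Gata genes were lower and *gata4* was the most abundant of them. *gata4* on scaffold 000007103 had 24.1, 28.4, 44.4, 22.2 and 20.7 FPKM in embryos 1 to 5 and was listed at 0 in all eggs, with a limit of 0.175 FPKM. Its log2 change was 4.80 ± 0.22 (limma, adjusted p = 1.40e-08). The longer *gata4* model on scaffold 000000678 had 11.01, 10.6, 7.38, 8.80 and 6.997 FPKM in embryos 1 to 5, and the shorter model on the opposite strand had 27.6, 36.3, 55.9, 17.1 and 27.7 FPKM. Embryo 3 was the highest in the shorter model and the next to lowest in the longer one. Both were listed at 0 in all eggs, with limits of 0.173 FPKM for the longer model and 0.487 FPKM for the shorter. The changes were 3.30 ± 0.20 (adjusted p = 1.45e-07) for the longer model and 4.98 ± 0.27 (adjusted p = 5.97e-08) for the shorter. As the pair shares bases, its split between strands is uncertain. Summed over the 3 *gata4* models, embryos had 69.8 ± 23.4 FPKM (SD, n = 5), and every egg was listed at 0. This sum includes both overlapping models, so it need not be the level of *gata4* mRNA.

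*gata5* was the Gata gene with reads in most eggs. The model on scaffold 000013471 had 8.76, 12.1, 10.98, 6.71 and 6.58 FPKM in embryos 1 to 5, against 0.487, 0.283, 0, 0.837 and 0.509 FPKM in eggs 1 to 5. The groups did not overlap, and the log2 change was 2.81 ± 0.25 (limma, adjusted p = 3.01e-06). In reads, 256 in embryos stood against 15 in eggs, a ratio of 19.1 on the FPKM scale. The model on scaffold 000014557 had 1.84, 3.75, 2.42, 3.04 and 1.62 FPKM in embryos 1 to 5. Of the eggs, only egg 5 was above 0, at 0.184 FPKM from 2 reads. Its log2 change was 1.74 ± 0.24 (adjusted p = 9.68e-05), and its ratio of 53.1 had a counting interval of 14.3 to 445.

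*gata6* was the least abundant of the Gata genes. On scaffold 000085591 it had 3.28, 3.45, 4.31, 4.17 and 2.93 FPKM in embryos 1 to 5 and was listed at 0 in all eggs, with a limit of 0.0484 FPKM. The log2 change was 2.20 ± 0.20 (limma, adjusted p = 4.36e-06). On scaffold 000029621 it had 1.41, 2.16, 5.15, 1.80 and 0.494 FPKM in embryos 1 to 5, from 28 reads in all. In eggs it was listed at 0, with a limit of 0.167 FPKM. Its change of 1.52 ± 0.34 (adjusted p = 0.00275) was the smallest among the models called. Without embryo 3, the library with the highest value, the change was 1.25 (adjusted p = 0.00234).

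*sox7* had the highest levels in eggs among these genes. The model on scaffold 000007103 that passed the filter had 1.02, 1.17, 0, 0.779 and 1.25 FPKM in embryos 1 to 5, against 0.841, 0, 3.96, 2.84 and 0.690 FPKM in eggs 1 to 5. The groups overlapped, and the log2 change was -0.35 ± 0.44 (limma, adjusted p = 0.515). The overlapping model on the other strand did not pass the filter and was at most 0.0390 FPKM in any library, in egg 1. The *sox7* model on scaffold 000102262, which the table does not name, held most of the signal. It had 31.0, 29.5, 21.1, 30.2 and 43.7 FPKM in embryos 1 to 5, against 8.08, 7.83, 13.6, 24.3 and 0.704 FPKM in eggs 1 to 5. Egg 4 lay above embryo 3, so the groups overlapped. The change was 1.84 ± 0.58 (adjusted p = 0.0169). It did not pass the test when no filter on low values was applied (adjusted p = 0.0861). Egg 5, the lowest, was the library in which 5 gene models held 34.8% of the reads. Without egg 5 the change was 1.25 (adjusted p = 0.00866). The part of that library's composition in the value was not tested.

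In the order of mean levels in embryos, *sox17b.1* was followed by *sox17b.2*, the *sox17a* models on scaffolds 000230826 and 000058038, *mix1* on 000027161 and 000102974, *mixer* on 000102974, the shorter *gata4* model on 000000678, *sox7* on 000102262 and *gata4* on 000007103. Then came *mixer* on 000027161, *gata5* on 000013471, the longer *gata4* model on 000000678, *gata6* on 000085591, *gata5* on 000014557, *gata6* on 000029621 and the *sox7* models on 000007103. Between neighbours in this order, all 5 embryos were apart only at the steps from *sox17b.1* to *sox17b.2*, from *mix1* to *mixer* on 000102974, from *gata4* on 000007103 to *mixer* on 000027161, and from the longer *gata4* model to *gata6* on 000085591. All other neighbours overlapped among embryos. The merged profiles, which hold 1 value per stage, had 450 FPKM in the embryo and 1.26 FPKM in the egg for *sox17b.1*. For *mixer* on 000102974 they had 45.9 FPKM in the embryo and 0.155 FPKM in the egg. For *gata5* on 000013471 they had 9.37 FPKM in the embryo and 0.512 FPKM in the egg.

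The spread among embryos differed from model to model. *sox17b.1* had a coefficient of variation (SD divided by the mean) of 3.08%, and counting error alone, from its 624 to 2187 reads per embryo, would give 3.21%. Among the 167 gene models with a mean within 1.5-fold of its own, itself included, the median was 19.9%, and 0.599% of them had a lower value. *sox17a* on the same scaffold had 22.6%, against 4.26% from counting, and the model on 000058038 had 37.7%, against 6.61%. *mix1* had 9.85% on scaffold 000102974, against 5.82% from counting, and 18.5% on scaffold 000027161, against 6.51%. *mixer* on 000102974 had 22.9%, against 8.32%, and *gata4* on 000007103 had 34.4%, against 11.9%. The longer *gata4* model had 20.3% and *gata6* on 000085591 had 16.3%, both below the 21.4% and 17.3% that their few reads give by counting. *mixer* on 000027161 had 16.8%, level with the 16.8% from counting. These models and *sox17b.1* are therefore not shown to vary between embryos beyond counting error. Among the 3 technical libraries, which held fewer reads, *sox17b.1* had 12.6%, *mix1* 34.7% on 000027161 and 16.9% on 000102974, and *mixer* 28.0% on 000027161. Those values lay above the ones of the embryos. Below the embryos were 5.03% and 13.9% for *sox17a* on 000230826 and 000058038, 17.8% for *mixer* on 000102974 and 18.2% for *gata4* on 000007103. Each embryo is 1 library, so spread between embryos and between libraries cannot be told apart.

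The models tended to be high and low in the same embryos. Of the 13 member models with an embryo mean of at least 1 FPKM, 8 were highest in embryo 3 and 10 were lowest in embryo 5. Over all 19122 gene models of that level, 27.4% were highest in embryo 3 and 26.4% were lowest in embryo 5. The members share reads and scaffolds, so they are not independent, and no test was made. These counts rank every model, including those not shown to vary between embryos beyond counting error. *sox17b.1* was lowest in embryo 3, but its coefficient of variation of 3.08% did not exceed the 3.21% from counting. Its order among embryos therefore shows no direction. *sox7* on 000102262 went the other way from most members, and was lowest in embryo 3 and highest in embryo 5. The summed level of the list of other endodermal genes was also lowest in embryo 3, at 509 FPKM, and highest in embryo 5, at 735 FPKM. The summed level of the housekeeping list was highest in embryo 3, at 8724 FPKM, and lowest in embryo 5, at 5848 FPKM. The part of library composition in this pattern was not tested. The 13 calls did not change when embryo 3 or embryo 5 was left out.

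**Figure D4:**
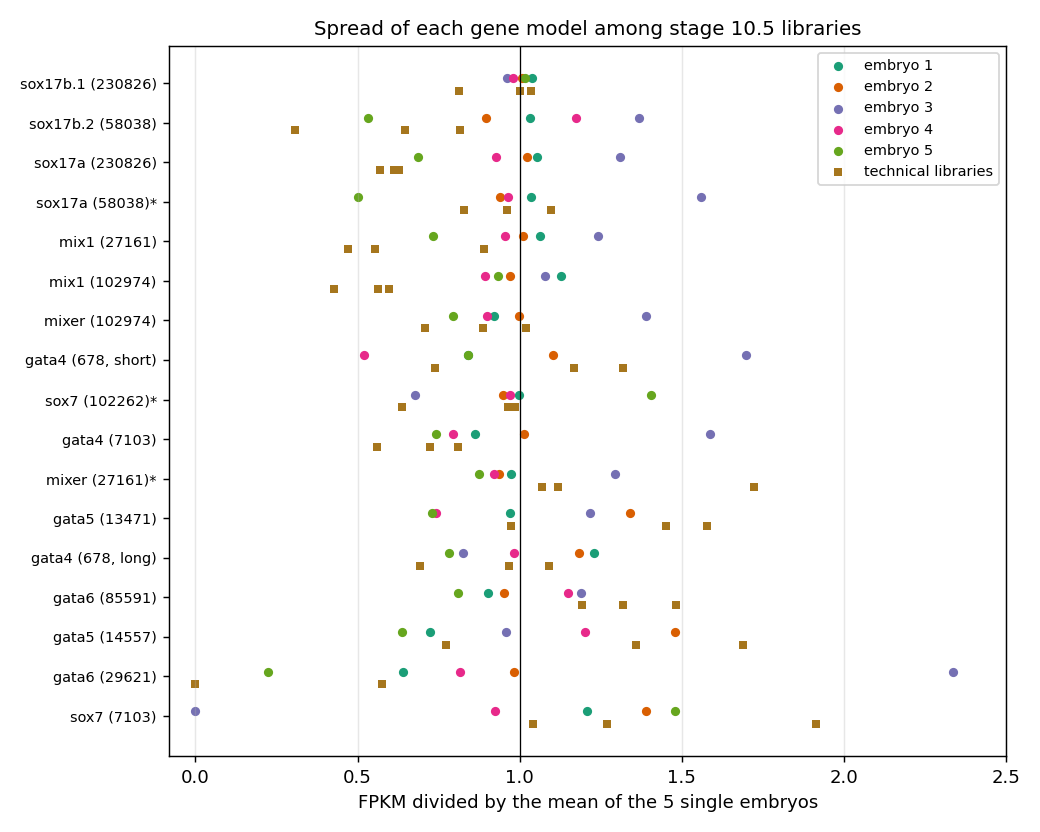
FPKM of each gene model in each single embryo (coloured circles) and in the 3 technical libraries (squares), divided by the mean of the 5 single embryos; an asterisk marks models named only in the gene model file. *sox17b.1* varies least, with a coefficient of variation of 3.08%, and embryo 3 is the highest and embryo 5 the lowest in most of the *sox17a*, *mix1*, *mixer* and *gata* models.

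In the technical libraries of the same stage these genes were expressed too, although not all at the level of the single embryos. *sox17b.1* had 421, 407 and 331 FPKM in technical libraries 1 to 3, against a mean of 407 FPKM in single embryos. *sox17a* on 000230826 had 123, 120 and 111 FPKM in technical libraries and *mix1* on 000102974 had 45.4, 63.4 and 59.7 FPKM, in both cases below every single embryo. *gata6* on 000085591 had 5.37, 4.78 and 4.32 FPKM, above every single embryo. *gata6* on 000029621 went the other way, with 0, 1.27 and 0 FPKM in technical libraries, against a mean of 2.20 FPKM in single embryos, although the groups overlapped. Of the 13 member models, 2 thus lay wholly below and 1 wholly above the embryos. Over all 19122 gene models of that level, 9.06% lay wholly below and 8.82% wholly above. With the technical libraries added to the embryo group, the same 13 models were called higher than in eggs.

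Gene models that share a name, or part of one, were compared within each embryo, as the log2 ratio of FPKM + 1. Whether the models of a pair are homeologous copies was not tested. The *sox17a* and *sox17b.2* models share only part of a name, so their ratio is not one of homeologous copies by name. With 5 embryos the exact sign-flip permutation test, two-sided, cannot give a p below 0.0625, so no pair could pass a threshold of 0.05, and over the 9 pairs compared no adjusted p was below 0.0938. *gata4* on 000007103 was above the longer model on 000000678 in all 5 embryos, by 1.51 ± 0.54 (SD, n = 5; exact permutation p = 0.0625). This ratio leaves out the shorter overlapping model on 000000678, with an embryo mean of 32.9 FPKM, against 28.0 FPKM for *gata4* on 000007103. As reads of the overlapping models cannot be told apart, the ratio does not show which *gata4* locus is higher. *gata5* on 000013471 was above the model on 000014557 in all 5, by 1.50 ± 0.35 (exact permutation p = 0.0625). *mixer* on 000102974 was above the model on 000027161 in all 5, by 1.87 ± 0.11 (exact permutation p = 0.0625), with ratios between 3.57 and 4.23. In the technical libraries the log2 ratio of the *mixer* models was lower than in any embryo, with a mean of 1.35 (1.18 to 1.57). *sox7* on 000102262 was above the model on 000007103 in all 5, by 4.14 ± 0.26 (exact permutation p = 0.0625).

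Other pairs had smaller mean ratios in embryos. *mix1* on 000027161 was above the model on 000102974 in 4 of 5 embryos, by 0.21 ± 0.21 (exact permutation p = 0.125), and in technical libraries the mean was 0.45. *gata6* on 000085591 was above the model on 000029621 in 4 of 5 embryos, by 0.68 ± 0.59 (exact permutation p = 0.125), and in all 3 technical libraries, by a mean of 2.14 (1.35 to 2.67). The *sox17a* model on 000230826 and the *sox17b.2* model differed by 0.01 ± 0.26 (exact permutation p = 0.938), with the first higher in 3 of 5 embryos. *sox17b.1* was above *sox17b.2* in all 5, by 1.09 ± 0.54 (exact permutation p = 0.0625). *sox17a* on 000230826 was above the model on 000058038 in all 5 embryos, by 0.56 ± 0.26 (exact permutation p = 0.0625), but in only 1 of 3 technical libraries, where the mean was -0.16. The pairs of *sox17a* on its 2 scaffolds, *sox17b*, *mixer* and *sox7* were added after the values were seen.

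**Figure D5:**
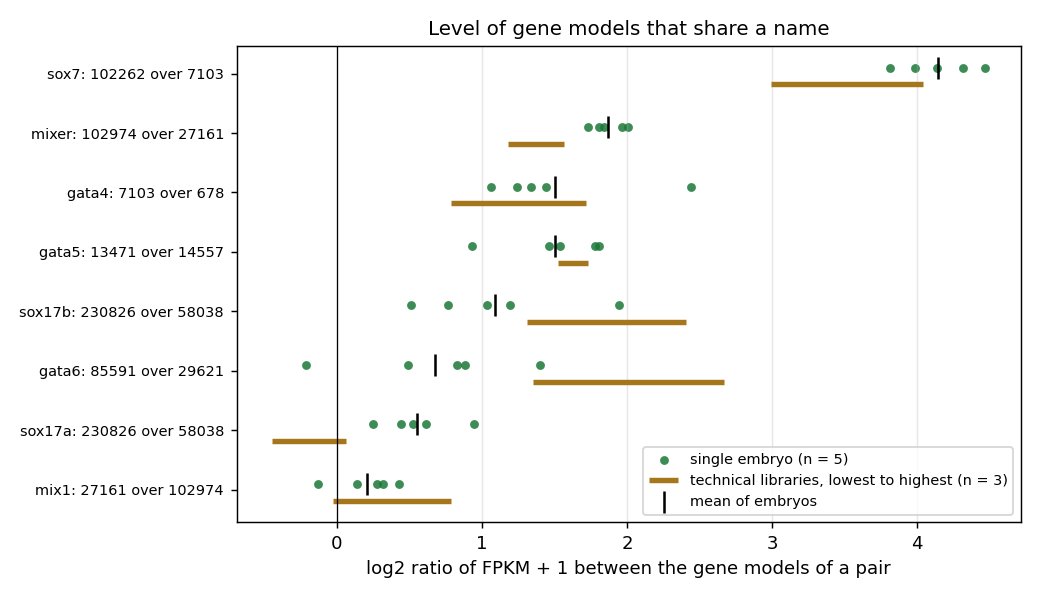
Log2 ratio of FPKM + 1 between gene models that share a name, in each single embryo (circles, with the mean as a vertical bar) and as the range of the 3 technical libraries (horizontal bars). Row labels give the scaffold on top of the ratio first. The *mixer* ratios lie between 1.73 and 2.00 in embryos and between 1.18 and 1.57 in technical libraries. The *mix1* ratios lie on both sides of 0.

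The genes known to act upstream of these factors differed in whether their mRNA was present in eggs. Of the 27 models of the list of inducers, 22 were tested, and 15 were called higher and 4 lower in embryos. Their median log2 change was 1.78. Of all gene models tested, 31.6% were called higher and 25.2% lower. *vegt*, a T-box inducer with maternal mRNA, had 269.5 FPKM in embryos and 81.2 FPKM in eggs (change 1.71 ± 0.19; limma, adjusted p = 1.86e-05), at a model whose name also holds *tbx20*. With 1 transcript per locus, maternal and zygotic *vegt* mRNA cannot be told apart. *foxh1*, the partner of Smad proteins in Nodal signalling, was lower in embryos, with 24.2 FPKM in embryos and 104 FPKM in eggs (change -2.06 ± 0.16; adjusted p = 1.33e-06). *smad2*, which transduces Nodal signals, had 60.6 FPKM in embryos and 33.7 FPKM in eggs (change 0.84 ± 0.15; adjusted p = 5.28e-04). *tdgf1*, a co-receptor of Nodal ligands, had 817 FPKM in embryos and 223 FPKM in eggs (change 1.85 ± 0.16; adjusted p = 2.88e-06). *gdf3*, at a model also named derrière, a ligand of the TGF-beta family, had 824 FPKM in embryos and at most 0.362 FPKM in any egg (change 9.58 ± 0.17; adjusted p = 1.14e-11). It resembled most members in being near 0 in eggs, and it entered the test only through its level in embryos. Calls of such models support nothing further.

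Other genes of endoderm and anterior endomesoderm were higher in embryos in all 10 models tested of 17, with a median log2 change of 2.87. Over all gene models tested, 31.6% were called higher and 25.2% lower, and the median was 0.12. The 17 models summed to at most 0.793 FPKM in any egg. Those tested entered only through their level in embryos, so this count supports nothing further. *foxa4*, a forkhead factor of the organizer, had 280.1 FPKM in embryos and was listed at 0 in eggs, and *cer1*, a secreted inhibitor of Nodal, BMP and Wnt signals, had 67.7 FPKM in embryos and at most 0.260 FPKM in eggs. *foxa1*, another forkhead factor, had 3.17 FPKM in embryos and was listed at 0 in eggs. Of the Gata and SoxF relatives and Gata cofactors, 4 of 12 models were tested, with 2 higher and 1 lower in embryos. With only 4 models tested, these counts cannot be set apart from the shares over all gene models. *gata2*, which marks ventral mesoderm and ectoderm, had 13.3 FPKM in embryos and at most 0.0916 FPKM in eggs (change 3.78 ± 0.22; limma, adjusted p = 9.23e-08). It entered the test only through its level in embryos, so its call supports nothing further. *zfpm1*, a cofactor of Gata proteins, had 2.29 FPKM in embryos and 3.21 FPKM in eggs (change -0.33 ± 0.25; adjusted p = 0.280).

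Markers of the other germ layers were also higher in these whole embryos. Of the ectodermal list, 13 of 15 tested models were called higher and 1 lower, with a median log2 change of 2.65. Ectodermal models listed at 0 in eggs, such as *grhl3* and *foxi4.2*, entered the test only through embryos, so their calls support nothing further. Of the mesodermal list, all 8 tested models were called higher, with a median log2 change of 4.84. Over all gene models tested, 31.6% were called higher and 25.2% lower. A *myod1* model had a mean of 1.32 FPKM in eggs, which came from egg 4 alone, at 6.58 FPKM. The other mesodermal models were near 0 in eggs. Those models entered the test only through their level in embryos, so their count supports nothing further. *grhl3*, an epidermal factor, had 130 FPKM in embryos and was listed at 0 in eggs, and *wnt8a*, a ligand of the marginal zone, had 213 FPKM in embryos and was listed at 0 in eggs. *sox3*, a neural factor with maternal mRNA, had 374 FPKM in embryos and 313 FPKM in eggs (change 0.27 ± 0.19; limma, adjusted p = 0.256). Of the list of oocyte and egg mRNAs, 20 of 21 models were tested, and 10 were lower and 3 higher in embryos, with a median log2 change of -0.81. *cpeb1*, which controls cytoplasmic polyadenylation, had 32.9 FPKM in embryos and 205 FPKM in eggs, a log2 change of -2.61. The most abundant models of other genes on this list changed less, and most of them were higher in embryos. The log2 changes were -0.35 for *zar1l*, 0.62 for *btg4*, 0.93 for *h1foo* and 0.45 for *ddx25*. The last was not called (limma, adjusted p = 0.0769). The follicle cell genes *cyp19a1*, *fshr* and *inha* were listed at 0 in all libraries. The 2 tested models of that list, whose names hold both *amh* and *sf3a2*, were above 0 in every library, and neither was called. The more abundant of them had 3.29 to 6.55 FPKM in embryos and 4.58 to 7.60 FPKM in eggs. Which of the genes in these names gave the reads was not tested. The housekeeping list had 8 of 18 tested models higher and 5 lower in embryos.

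The gene models whose pattern over the 10 single libraries was most like that of *sox17b.1* were chosen by the Pearson correlation of log2(FPKM + 1) among 7760 named models that averaged 10 FPKM or more. They were *hist1h3g* (r = 0.998), *gltscr2* (r = 0.997), *mgc75753:mgc80563* (r = 0.994), *xk70a:krt:ttc34* (r = 0.994) and *slc16a3* (r = 0.993). All 10 points share the contrast of stages, and 518 models reached 0.95, so the correlation describes mainly that contrast. *hist1h3g* had a median of 119 FPKM in embryos and 0 FPKM in eggs, with 1.92 FPKM in its highest egg.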

How the data were processed

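RNA of 5 single embryos, 3 technical libraries of embryos and 5 single eggs was depleted of rRNA, and single ends of 42 bases were read. Alignment by the authors was to JGI 7.1 with gmap, and they computed FPKM with Cufflinks 2.1.1 for gene models made with pita, 1 transcript per locus; the deposited FPKM values were used as they stand. The submitters' processing notes also name CASAVA 1.8.2, SAMtools 0.1.18 and Cuffdiff, which scales libraries to each other. The merged profiles are the authors' single FPKM value per stage, after random removal of reads.

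Numbers of reads were derived from the spacing of low FPKM values in models of at least 1500 bases, with effective lengths for fragments of mean 200 and SD 80 bases; the low values used were whole multiples within 0.1 in all of them. Embryos and eggs were compared with limma 3.58.1 (R 4.3.3) on log2(FPKM + 1), with a trend and Benjamini-Hochberg adjustment over the 19373 models that averaged 1 FPKM or more, at a threshold of 0.05. A pseudocount of 1 understates changes of low genes. The script was tested on simulated data. All eggs came from a single mother, so p-values measure only the spread between these libraries.

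Members and lists were chosen with earlier results of these data known. Every member model is named; of each list, models tested were counted, and the most abundant tested model of up to 5 genes could be named. A gene model's start and end were taken from the deposited gene model file. Alternatives changed the filter, pseudocount, scaling, trend, replicate block and libraries. Sequences and promoter motifs were not analysed here.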

Additional observations from a re-analysis of the deposited data

Results flagged for a closer look

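In 5 of the 28 sets of 5 libraries with unequal values, the library at one end stood apart from the rest by more of the range than the 95% critical value of Dixon's test, 0.71. Chance alone marks about 1 in 20 sets of continuous values, but that rate does not hold for sets in which most values are 0, as in these eggs, where 1 library above 0 is always marked. In embryos, *mixer* on scaffold 000027161 had 14.2 FPKM in embryo 3, from 30 reads, and the next embryo had 10.7 FPKM. In eggs, *sox17b.1* had 4.07 FPKM in egg 2, from 14 reads, and the next egg had 0.785 FPKM. *sox17a* on scaffold 000058038 had 0.802 FPKM in egg 4 and *gata5* on scaffold 000014557 had 0.184 FPKM in egg 5, each from 2 reads, with 0 in the other eggs. The *sox7* model on scaffold 000007103 that did not pass the filter had 0.0390 FPKM in egg 1, less than the value of 1 read.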

How the results depend on the processing

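The count of 13 member models higher in embryos, with none lower, held under every alternative that tested these models, and when any embryo or egg was left out (13 to 13 higher and 0 to 0 lower). With a filter of at least 5 FPKM, which leaves out low models, 8 members remained tested and called higher. The same filter called 8 inducers, 5 other endodermal models and 1 Gata or SoxF relative higher, and 0 relatives lower. With the pseudocount of 0.1 the log2 changes of the 13 models were larger, up to 10.9 for *sox17a* on scaffold 000230826 and 4.19 for *gata6* on scaffold 000029621.

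Equal replicate numbers of eggs and embryos did not deviate together (correlations of -0.0166 to 0.0742), so they were not taken as pairs. With the replicate number as a block, 10661 gene models were called in place of 11002, all 13 member calls held, and 0 relatives were lower in place of 1. The best match of an egg was the embryo of its own number for 2 of 5 numbers.

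The ectodermal model called lower was lost (0 called) when models above 0 in at least 1 library, or all models, were tested, and its count ranged from 0 to 1 when a library was left out, as did that of the relatives. Maternal mRNAs called higher numbered 5 with the technical libraries added, and 2 to 6 when a library was left out, against 3 with all libraries. Between copies, the *sox17a* and *sox17b.2* ratio had values from -0.0739 (without embryo 5) to 0.1004 on the log2 scale when an embryo was left out, and was also below 0 without embryo 2. In the technical libraries the mean ratio was 0.45 for *mix1*, 2.14 for *gata6*, 1.35 for *mixer* and -0.16 for *sox17a*. The cause of these shifts was not tested. Scaling by the median of ratios moved log2 changes by 0.0693 at the median. Models with fewer than 30 reads over all embryos, such as *gata6* on scaffold 000029621, are limited by depth. Among values of single gene models and added pairs under an alternative, 893 kept their direction and side of the threshold, 33 were no longer called, 5 became called, 4 ratios of added pairs moved by more than the SD among embryos and 1, the *sox17a* pair above, changed sign.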
